A study of Mus musculus with 2 samples.

Results

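Interferon-stimulated genes are the genes that cells switch on in response to interferons, and the interferon regulatory factors (the Irf genes) are the transcription factors that act before and after those cytokines. The set described here took every protein-coding gene of the count table whose symbol starts with Ifi or Oas, or with Irf or Gbp and a digit, together with a list of named antiviral genes such as Isg15, Stat2, Bst2 and Parp14. That rule gave 85 of 45777 genes, of which 21949 were protein-coding, and 73 of the 85 reached 1 CPM (counts per Mread after TMM scaling) in at least 1 library. The listed Mx1 and Mx2 stand in the table as transcribed pseudogenes, so the rule leaves them out, and their values are given among the antiviral effectors. RNA came from whole kidneys of mice, as 1 control library and 1 library of conditional knockout (CKO) mice that had lost Inmt, the gene of indolethylamine N-methyltransferase, in proximal tubules, where the nephron takes back most of what the glomerulus filters. Both groups ate standard chow and were untreated. Strain, age, sex, the Cre driver, the genotype of the control animals and the number of animals behind each library are not given in the sources used here. With 1 library a group there was no replicate check, no test and no p-value, and the 95% intervals below cover counting error only.

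Type I interferons signal through the receptor pair Ifnar1 and Ifnar2, and type II interferon through Ifngr1 and Ifngr2. Jak kinases then phosphorylate Stat proteins. Complexes that hold Stat2 and Irf9 bind the interferon-stimulated response element (ISRE) in promoters, and Stat dimers bind the gamma-activated site (GAS). The products block infection in several ways, among them Oas enzymes that sense double-stranded RNA, Ifit proteins that bind foreign RNA, Ifitm proteins that hinder membrane fusion, and Gbp and IRG GTPases that attack vacuoles holding pathogens. In the kidney these genes are known to be induced in inflamed tissue, in both resident cells and infiltrating leukocytes.

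Counted reads numbered 33618076 for the control and 38136616 for the CKO, with effective sizes of 30.1 and 42.6 (in Mreads) after scaling. Inmt itself had 17678 control and 5283 CKO reads, 587 against 124 CPM, and was 4.73-fold lower (4.59 to 4.88) in the library labelled CKO. Among all 15129 expressed genes, 10.3% were at least 2-fold higher in the CKO library and 1.66% at least 2-fold lower, counted on the log2 scale of CPM + 0.5. Where values are given as one against another below, the control comes before the CKO library, and ratios are CKO over control with their 95% counting interval.

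Promoters of 5 members are shown first, because they show how the element of this gene class is placed, from 3 matches to none (0), in genes with different ratios between the libraries. Each is the 250 bases before the start site in RefSeq on GRCm38.p6, the assembly that mm10 names, written 5′ to 3′ on the gene's strand. Capitals mark the ISRE core GAAANNGAAA on either strand, and positions count back from the start site, whose first upstream base is -1. Isg15, a ubiquitin-like protein, lies downstream of chr4:156200819-156201068 (minus strand), where 3 overlapping cores start at -78, -72 and -66. Oas1a, an RNA-activated synthetase, follows chr5:120907526-120907775 (minus strand), with overlapping cores at -20 and -14. Ifit3, an RNA-binding complex member, follows chr19:34583279-34583528 (plus strand), with separate cores at -156 and -122. Rsad2, the antiviral enzyme viperin, follows chr12:26456453-26456702 (minus strand) and has 1 core, at -120. Irf7, the regulator that amplifies type I interferon, follows chr7:141266425-141266674 (minus strand) and has none (0) in its 300-base window.
Isg15: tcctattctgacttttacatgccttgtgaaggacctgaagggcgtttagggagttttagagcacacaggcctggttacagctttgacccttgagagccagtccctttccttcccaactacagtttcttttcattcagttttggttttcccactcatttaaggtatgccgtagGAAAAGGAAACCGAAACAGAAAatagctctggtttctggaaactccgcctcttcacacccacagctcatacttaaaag
Oas1a: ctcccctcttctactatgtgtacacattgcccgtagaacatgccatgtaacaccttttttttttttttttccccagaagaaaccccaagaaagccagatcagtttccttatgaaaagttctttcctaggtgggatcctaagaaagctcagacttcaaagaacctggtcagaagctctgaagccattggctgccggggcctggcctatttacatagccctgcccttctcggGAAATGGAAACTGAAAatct
Ifit3: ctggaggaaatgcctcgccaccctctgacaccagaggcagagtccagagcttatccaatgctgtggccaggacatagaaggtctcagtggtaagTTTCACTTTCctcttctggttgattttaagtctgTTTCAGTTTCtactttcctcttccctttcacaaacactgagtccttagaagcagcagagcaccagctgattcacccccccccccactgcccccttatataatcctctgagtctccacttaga
Rsad2: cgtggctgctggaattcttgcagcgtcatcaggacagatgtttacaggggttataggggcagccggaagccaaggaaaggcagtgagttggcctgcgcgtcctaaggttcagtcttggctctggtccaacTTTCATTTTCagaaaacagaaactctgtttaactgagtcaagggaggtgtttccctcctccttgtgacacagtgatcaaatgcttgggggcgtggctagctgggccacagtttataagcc
Irf7: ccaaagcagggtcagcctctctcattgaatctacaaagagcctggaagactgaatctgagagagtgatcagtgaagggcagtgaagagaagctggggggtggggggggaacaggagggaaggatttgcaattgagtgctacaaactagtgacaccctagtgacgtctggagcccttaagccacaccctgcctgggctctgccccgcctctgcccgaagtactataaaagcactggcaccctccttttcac

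These 5 genes were picked to differ in both matches and ratios, so nothing is read from how the matches and ratios pair. Isg15, Oas1a and Ifit3, which carry the core, were 4.53-fold, 5.19-fold and 5.07-fold higher in the CKO library. Irf7, without a match in its window, was 6.38-fold higher, while Rsad2, with a match, had a ratio of 1.04 (0.943 to 1.15). RefSeq windows of 300 bases (250 before and 50 after the start site) were found for 66 of the 85 members. Of these, 35 (53.0%) held the ISRE core on either strand in at least 1 window, against 1079 of 27025 genes with a window (3.99%). The 35 are not all separate sequences. The windows of Ifit1 and Ifit1bl2 overlap and hold the same 2 cores, and those of Ifit3 and Ifit3b share long stretches. The GAS motif TTCNNNGAA, which is its own reverse complement, was in 16 of the 66 (24.2%), against 9.55% of all genes with a window. Counted by window, the ISRE core was in 37 of 79 member windows and in 3.44% of all windows.

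Expressed members with a window were then compared by the core. Of 31 with an ISRE core, 20 were at least 2-fold higher (median log2 ratio 1.35, range 0.06 to 2.36). Of 26 without it, 16 were at least 2-fold higher (median 1.16, range -0.06 to 2.72). Outside the set, 71 of 408 expressed genes with the core (17.4%) were at least 2-fold higher, against 1066 of 11064 without it (9.63%), and the medians were 0.09 and 0.00. A match is a description of the letters and not a binding site, and its absence says nothing about the factor.

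Interferon-stimulated genes and Irf factors were mostly higher in the CKO library. Of the 73 expressed members, 47 (64.4%) were at least 2-fold higher and none (0) at least 2-fold lower, beside the 10.3% and 1.66% of all expressed genes. The median log2 ratio of the members was 1.28 with quartiles of 0.73 and 1.80, where all expressed genes had a median of 0.01 and quartiles of -0.25 and 0.42. Altogether 68 members lay above 0 (93.2%, against 50.7% of all expressed genes), and 13 were at least 4-fold higher (17.8%, against 1.92%). The 95% counting interval of the plain ratio lay above 1 for 65 members, above 2 for 43, held 1 for 7 and lay below 1 for 1. The 7 were Irf3, Irf2bp1, Ifit1bl1, Gbp8, Cmpk2, Rsad2 and Samd9l. These interval counts were not taken over all expressed genes, so they are not read as a trait of the members. With many reads, small differences also pass, such as Irf2 at a ratio of 1.13 (1.03 to 1.25).

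Of the 73, 11 reached 1 CPM only in the CKO library, which selects for a higher level there. Among the 62 that reached it in the control, 38 were at least 2-fold higher (61.3%), against 6.75% of the 14081 genes that did so. Because genes with few reads scatter more, the members were also read against genes of like counts. Among the 5371 expressed genes within the middle range of member control levels (1.39 to 15.7 CPM), 13.1% were at least 2-fold higher (median log2 ratio 0.22). Of the 37 members in the same range, 28 were at least 2-fold higher (median 1.28). On the authors' length-scaled TPM, the expressed members summed to 737 (control) and 1710.3 (CKO).

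**Figure D1:**
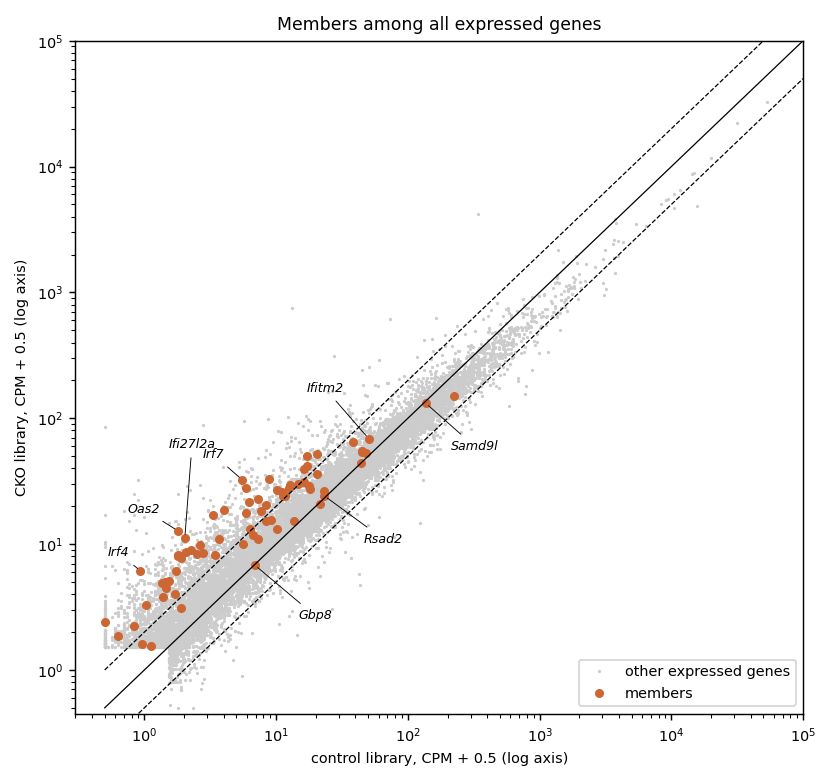
Each point is an expressed gene, with its control level on the x axis and its CKO level on the y axis (both CPM + 0.5, log axes). The solid line marks equal levels and the dashed lines 2-fold differences, and 47 of 73 members (orange) lie on or above the upper dashed line and 0 below the lower one.

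Among the Irf transcription factors and Stat2, 5 of 10 were at least 2-fold higher (median log2 ratio 0.92). Of these 10, Irf4 reached 1 CPM only in the CKO library. Of the 9 that reached it in the control, 4 were at least 2-fold higher. Irf4, which directs plasma cell and effector T cell programmes and is also used in macrophages and dendritic cells, had 13 control and 240 CKO reads. This was 0.432 against 5.64 CPM, a 13.1-fold difference (7.49 to 24.9). Irf4 lies on chromosome 13 at 30749233 to 30766981 (GRCm38).

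Irf7 had 151 reads against 1363, or 5.01 (exact Poisson interval 4.25 to 5.88) against 32 CPM (30.3 to 33.8), and was 6.38-fold higher (5.39 to 7.60). Irf1, an early target of type II interferon, had 473 against 1653 reads, or 15.7 against 38.8 CPM, 2.47-fold higher (2.23 to 2.74). Irf8, a factor of monocyte and dendritic cell development, had 11.2 against 23.5 CPM, 2.10-fold higher (1.86 to 2.39). All 3 were higher in the CKO library, and their intervals cover counting error only.

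The partners of the ISRE-binding complex were closer to the 2-fold limit. Irf9 had 428 and 1263 reads, 2.09-fold higher (1.87 to 2.33). With a pseudocount of 2 CPM in place of 0.5, Irf8 and Irf9 no longer passed the limit, which left 3 of the 10. Stat2 had 600 and 1504 reads, 1.77-fold higher (1.61 to 1.95), with a log2 ratio of 0.81. Under total count scaling Stat2 also passed 2-fold.

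Irf3, Irf2 and Irf5 had ratios closer to 1. Irf3, the constitutive factor activated by nucleic acid sensing, had 1312 against 1847 reads, 43.6 against 43.4 CPM, a ratio of 0.995 (0.927 to 1.07). Irf2, which antagonises Irf1 at shared sites, had 682 against 1094 reads, 22.7 against 25.7 CPM, and a log2 ratio of 0.18, and Irf5, a factor of Toll-like receptor signalling, had 0.37.

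The 3 IRF2-binding proteins, corepressors named for their binding to Irf2, were near 0. Irf2bp2 had a log2 ratio of 0.30, Irf2bpl 0.14 and Irf2bp1 -0.04, with a median of 0.14 and none (0) at least 2-fold higher. Their levels were 44.5, 47.5 and 21.1 CPM (control) and 54.9, 52.5 and 20.5 CPM (CKO).

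**Figure D2:**
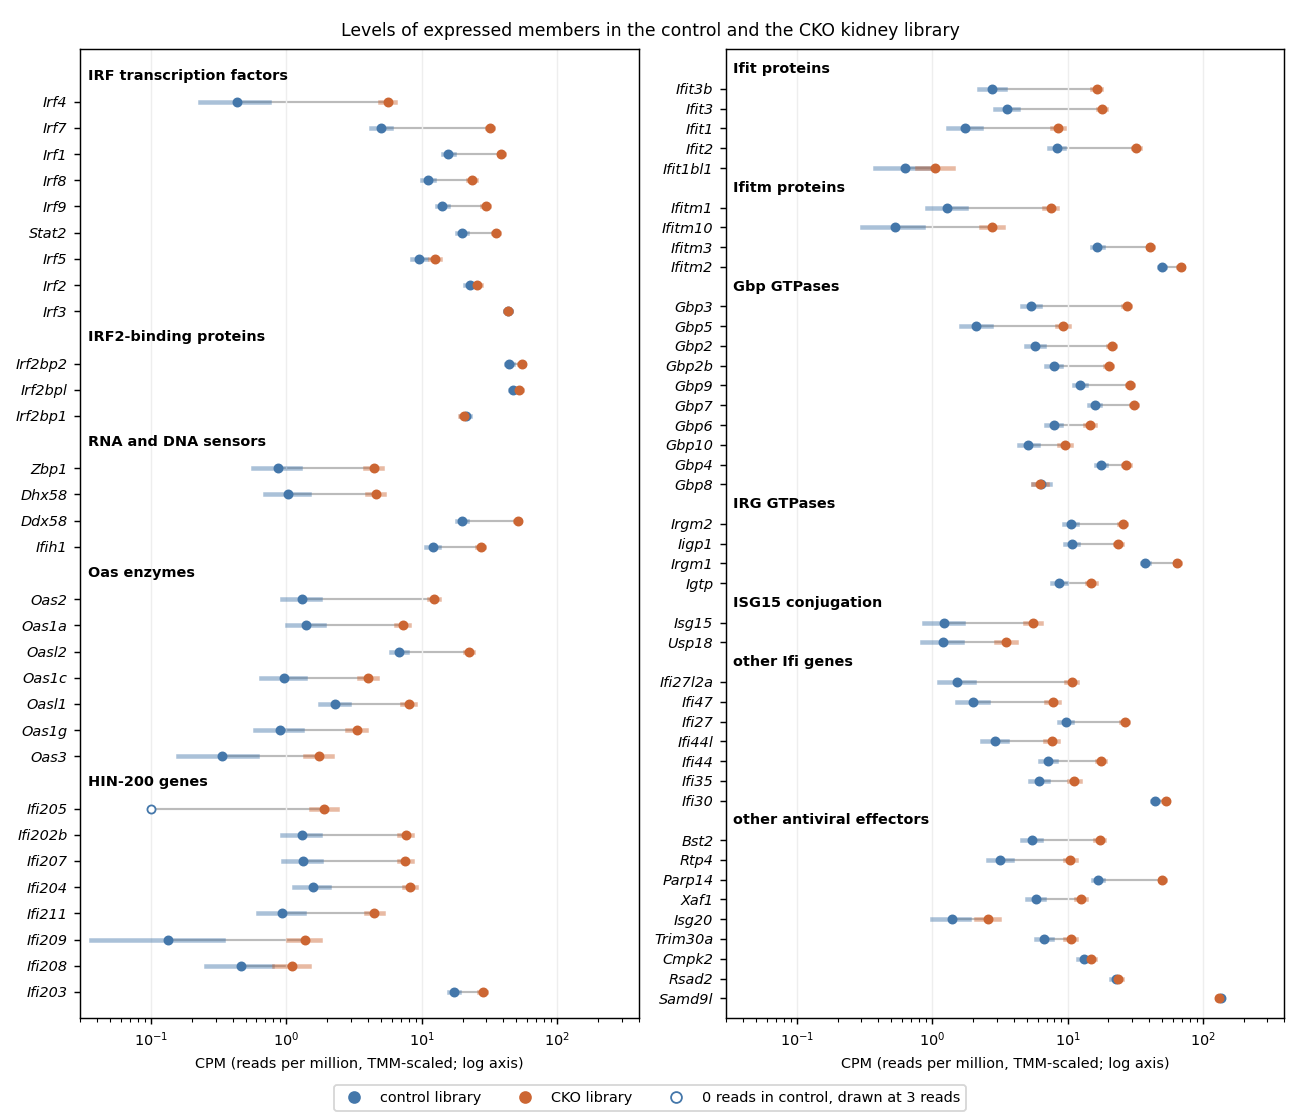
Levels of 72 of the 73 expressed members by role, in CPM on a log axis, with the control library in blue, the CKO library in orange and bars for the exact Poisson 95% interval. Levels are to be compared within a gene, since CPM is not scaled by gene length: the CKO point lies to the right for 68 members and to the left for 4 (Irf3, Irf2bp1, Gbp8 and Samd9l), and these 4 lie to the right with total counts.

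All 4 nucleic acid sensors of the set were at least 2-fold higher (median log2 ratio 1.54). Of them, Zbp1 reached 1 CPM only in the CKO library and so was bound to be higher there. The other 3 reached it in the control too. Zbp1, a sensor of Z-form nucleic acid that can start necroptosis, had 26 reads against 188, 5.11-fold higher (3.38 to 8.03). Dhx58, or LGP2, a helicase that tunes the other sensors, had 31 against 194 reads, 4.43-fold higher (3.02 to 6.69). Ddx58, the RNA helicase RIG-I, had 19.8 against 51.3 CPM, 2.59-fold higher (2.37 to 2.84), and Ifih1, or MDA5, 12.0 against 27.2 CPM, 2.26-fold higher (2.01 to 2.55). Every interval lay above 2.

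Active Oas enzymes make 2-5A, the messenger that activates RNase L. Whether each gene of this group encodes an active enzyme was not examined. Of 11 genes in the table, 7 were expressed and all 7 were at least 2-fold higher (median log2 ratio 1.63, range 1.43 to 2.83). Of the 7, Oas3, Oas1c and Oas1g reached 1 CPM only in the CKO library and so were bound to be higher there, and the other 4 reached it in the control too. Oas2 had the largest log2 ratio of the whole set, with 39 control and 522 CKO reads, or 1.30 against 12.3 CPM, 9.46-fold higher (6.83 to 13.5). Oas1a was 5.19-fold higher (3.75 to 7.34) on 42 against 308 reads. Oasl2, an Oas-like protein, had 6.81 against 22.4 CPM, 3.29-fold higher (2.83 to 3.85).

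The other expressed Oas genes also passed the limit. Oas3 had 10 against 74 reads, 5.23-fold higher (2.69 to 11.4), and Oas1g had a log2 ratio of 1.45. Oasl1 had 69 against 341 reads, 3.49-fold higher (2.69 to 4.60), and Oas1c 29 against 171, 4.17-fold higher (2.80 to 6.41). Of the 50-base words of Oas1a, 57.6% also occur in Oas1g, so the split of reads between them is uncertain. Oas1d, Oas1f and Oas1h were listed at 0 in both libraries and Oas1e had 0 and 3 reads.

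**Figure D3:**
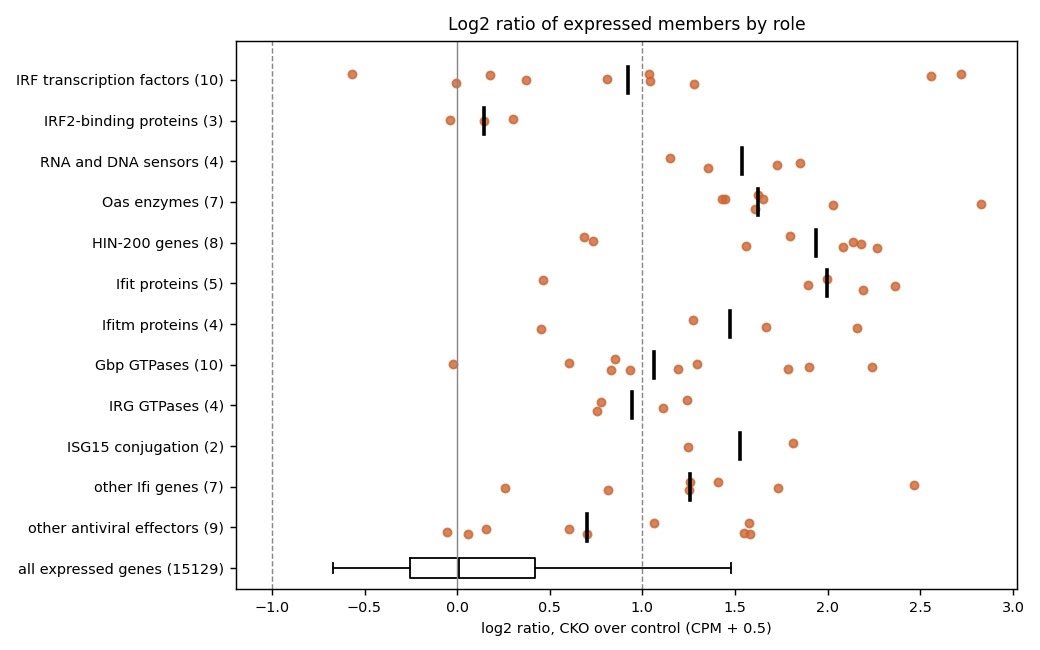
Log2 ratio of CKO over control (CPM + 0.5) for each expressed member by role, with the number of genes in brackets, medians as bars and the 2-fold limits dashed. The box shows the quartiles (-0.25 and 0.42) and median (0.01) of all 15129 expressed genes with whiskers at the 5th and 95th percentiles. The sensor, Oas and ISG15 genes all lie beyond the upper limit. Of these, 1 sensor and 3 Oas genes reached 1 CPM only in the CKO library.

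HIN-200 genes encode proteins of the nucleus and cytoplasm that bind DNA, and lie in 1 cluster on chromosome 1 from 173468485 to 174031755. Of 11 in the table, 8 were expressed and 6 were at least 2-fold higher (median log2 ratio 1.94). Ifi205, Ifi209, Ifi208 and Ifi211 reached 1 CPM only in the CKO library, and of the other 4, which reached it in the control, 3 were at least 2-fold higher. Ifi202b had 39 reads against 325, 5.89-fold higher (4.22 to 8.44). Ifi207 had 40 against 321 reads, 5.67-fold higher (4.08 to 8.09), and Ifi204 had 47 against 350, 5.27-fold higher (3.88 to 7.30). All 3 passed the limit, and Ifi204 shares 30.2% of its 50-base words with other genes.

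Ifi205 was listed at 0 control and 81 CKO reads, 19.1-fold higher against a floor of 3 reads in the control library, and its counting interval lay above 15.2. Ifi209 had 4 against 58 reads, 10.3-fold higher with a wide interval (3.80 to 38.9). Of the 50-base words of Ifi209, 35.1% recur in other genes, mainly Ifi214 (34.7%). Ifi203, the most abundant of the group per length (a TPM of 5.63 against 12.8), differed least, with 17.4 against 28.2 CPM, 1.63-fold higher (1.47 to 1.80). Ifi208 had 14 against 47 reads and a log2 ratio of 0.73. Of the 3 members under the minimum, Ifi214 had 0 against 23 reads, Ifi213 0 against 12, and Ifi206 6 against 19. Ifi211 had 28 against 190 reads, a log2 ratio of 1.80, and 72.8% of its words recur in other genes, 44.7% in Ifi205.

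Ifit genes, whose products bind RNA that lacks host marks, had the highest median of the role groups, 2.0 on the log2 scale, with 4 of 5 expressed genes at least 2-fold higher. Ifit3b had 84 reads against 700, 5.89-fold higher (4.69 to 7.48). Ifit3 had 107 against 767, 5.07-fold higher (4.14 to 6.26), and Ifit1 had 53 against 363, 4.84-fold higher (3.62 to 6.59). Ifit2 had 8.30 against 32.3 CPM, 3.89-fold higher (3.39 to 4.47). All 4 passed the 2-fold limit, and Ifit3 shares 51.2% of its 50-base words with Ifit3b.

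Ifit1bl1 stood apart within the family, with 19 against 45 reads and a ratio of 1.67 (0.960 to 3.03). Its gene model on chromosome 19 (34592888 to 34662981, minus strand) spans Ifit1 and Ifit3b on the other strand and Ifit1bl2 on its own. Ifit1bl2 was under the minimum, with 11 against 24 reads.

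Ifitm proteins hold the most abundant members of the set per length. Ifitm2 had a TPM of 127 (control) and 230.5 (CKO), and was 1.37-fold higher in CPM (49.9 against 68.4), a log2 ratio of 0.45. Of the 50-base words of Ifitm2, 48.5% also occur in other genes, so its single values are uncertain. Ifitm3, which restricts influenza virus entry, had a TPM of 43.1 against 142 and was 2.46-fold higher in CPM (2.23 to 2.73). Ifitm1 had 39 against 320 reads, 5.80-fold higher (4.15 to 8.31). Ifitm10, a distant relative, had 16 against 118 reads, 5.22-fold higher (3.08 to 9.42). Of 4 expressed Ifitm genes, 3 were thus at least 2-fold higher (median log2 ratio 1.47). Among them Ifitm10 reached 1 CPM only in the CKO library. Of the 3 that reached it in the control, 2 were at least 2-fold higher. Ifitm7 had 0 against 22 reads, Ifitm6 0 against 9 and Ifitm5, a bone gene, 0 against 5.

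Gbp genes encode guanylate-binding GTPases, typical targets of type II interferon, and all 10 in the table were expressed. Of these, 5 were at least 2-fold higher (median log2 ratio 1.06). Gbp3 had 163 reads against 1168, or 5.41 against 27.4 CPM, 5.07-fold higher (4.30 to 6.01). Gbp5, which promotes inflammasome activity, had 64 against 396 reads, 4.38-fold higher (3.35 to 5.79), and Gbp2 had 174 against 902, 3.67-fold higher (3.11 to 4.34). Gbp2b had 238 against 855 reads, 2.54-fold higher (2.2 to 2.95). Gbp9 had 12.4 against 28.9 CPM, 2.34-fold higher, and Gbp7 15.9 against 30.9 CPM, 1.94-fold higher. Gbp8 was the lowest, with 193 against 268 reads and a ratio of 0.982 (0.813 to 1.19).

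The Gbp genes lie in clusters on 2 chromosomes, and the log2 ratios differed between them. On chromosome 3 (142496934 to 142638008), 4 of 5 were at least 2-fold higher, from 0.93 for Gbp7 to 2.24 for Gbp3. On chromosome 5 (105012513 to 105295871), 1 of 5 was, Gbp9, and the range ran from -0.02 to 1.19. With total counts, Gbp6 and Gbp10 on chromosome 5 and Gbp7 on chromosome 3 also passed 2-fold, so that 8 of the 10 Gbp genes did. On that chromosome Gbp10 shares 82.5% and Gbp6 59.7% of their 50-base words with other genes, mainly the gene model Gm43302, so their single values (log2 ratios of 0.83 and 0.85) are uncertain. Gbp4, at 0.60, had 17.7 against 27.1 CPM.

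IRG GTPases act with the Gbp proteins on pathogen vacuoles, and 2 of 4 were at least 2-fold higher. Irgm1, the most abundant per length, had 37.6 against 64.8 CPM, 1.72-fold higher (1.61 to 1.85). Irgm2 had 317 against 1090 reads, 2.43-fold higher (2.14 to 2.76), Iigp1 324 against 1013, 2.21-fold higher (1.95 to 2.51), and Igtp 262 against 640, 1.73-fold higher. The group was narrow, from 0.76 to 1.24 on the log2 scale, and all 4 passed 2-fold when total counts set the scale.

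Both genes of ISG15 conjugation were at least 2-fold higher. Isg15 had 37 reads against 237, or 1.23 against 5.57 CPM, 4.53-fold higher (3.19 to 6.59). Usp18, the protease that removes ISG15 and also dampens Ifnar2 signalling, had 36 against 150 reads, 2.95-fold higher (2.04 to 4.37), and did not pass the limit with a pseudocount of 2 CPM.

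Of 7 other expressed Ifi genes, 5 were at least 2-fold higher (median log2 ratio 1.26). Ifi27l2a had 46 reads against 456, 7.01-fold higher (5.17 to 9.71), and its neighbour Ifi27 had 291 against 1129, 2.74-fold higher (2.41 to 3.13). The 2 gene models overlap by 6057 bases on chromosome 12, so reads there could be assigned to either. Ifi47, an IRG-related GTPase, had 60 against 331 reads, 3.90-fold higher (2.96 to 5.23). Ifi44 had 7.14 against 17.7 CPM, 2.48-fold higher, Ifi44l 2.92 against 7.68 CPM, 2.63-fold higher, and Ifi35 6.18 against 11.2 CPM, 1.82-fold higher. Ifi30, the thiol reductase of the antigen-processing compartment, was the lowest, at a TPM of 76.1 against 122 and a log2 ratio of 0.26 in CPM, and Ifi27l2b was listed at 0 in both libraries.

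The remaining antiviral effectors split, with 4 of 9 at least 2-fold higher and 3 near 0. Bst2, or tetherin, which holds budding virions on the cell surface, had 5.45 against 17.3 CPM, 3.17-fold higher (2.67 to 3.78). Parp14, an ADP-ribosyltransferase, had 16.8 against 50.1 CPM, 2.98-fold higher (2.7 to 3.29). Rtp4, a receptor chaperone, was 3.29-fold higher (2.63 to 4.14) on 96 against 446 reads. It overlaps Masp1, which had 93 against 452 reads, so reads in the overlap could belong to either gene, and whether the counting used strand is not given in the sources used here. Xaf1, a partner of the apoptosis inhibitor XIAP, had 175 against 539 reads, 2.18-fold higher.

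The lowest effectors included textbook interferon targets. Rsad2 had 22.8 against 23.7 CPM, a ratio of 1.04 (0.943 to 1.15). Cmpk2, which lies next to Rsad2 on chromosome 12 (both within 26442743 to 26479837), had 13.3 against 14.8 CPM, a ratio of 1.12 (0.985 to 1.27). Samd9l, a translation inhibitor and per length the most abundant of the group in both libraries, had 4108 against 5582 reads, 136 against 131 CPM, a ratio of 0.961 (0.923 to 1.0). With total counts the log2 ratio of Samd9l was 0.26. Isg20 and Trim30a were between, at 0.70 and 0.61 on the log2 scale.

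Mx1 and Mx2, dynamin-like GTPases against influenza and other viruses that are counted as pseudogenes in the table, went the same way as the set. Mx1 had 10 reads against 114, 8.06-fold higher (4.23 to 17.3), and Mx2 14 against 154, 7.78-fold higher (4.5 to 14.6).

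The rest of the interferon pathway was read from lists of genes outside the set. Interferon genes themselves were close to absent: of 20 in the table, none (0) reached 1 CPM and 18 had 0 reads in both libraries. The exceptions were Ifng, with 0 and 3 reads, and Ifnz, with 1 and 4 reads, a ratio of 2.83 (0.280 to 139). Ifnb1 had 0 reads in both libraries.

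Receptors and kinases lay nearer to equal levels than the members did. Of 12 expressed receptor and Jak-Stat genes, 11 had a log2 ratio above 0 (91.7%, against 50.7% of all expressed genes), with a median of 0.36. Only 1 was at least 2-fold higher (8.33%), near the 10.3% of all expressed genes. That was Ifngr1, the ligand-binding chain for type II interferon, with 676 against 2088 reads, 2.18-fold higher (2.0 to 2.39). Ifngr2, its signalling partner chain, had a log2 ratio of 0.60. Jak1, the most abundant per length, was at -0.02, and the feedback inhibitor Socs1 had 16 and 22 reads.

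Sensing genes upstream of interferon went both ways. Of 17, 6 were at least 2-fold higher (median log2 ratio 0.63). Of these 6, 3 reached 1 CPM only in the CKO library and so were bound to be higher there, Tlr8 and Tlr9 among them. Of the 13 genes that reached it in the control, 3 were at least 2-fold higher. Tlr8 had 4 reads against 133, 23.5-fold higher (8.97 to 87.6), Tlr9, which detects DNA in endosomes, had 11 against 158, 10.2-fold higher (5.52 to 20.8), and Tmem173, or STING, had 79 against 465, 4.16-fold higher (3.27 to 5.35). Trim25 was at -0.42 and the adaptor Ticam1 at -0.35.

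About as many of a list of other interferon-induced genes passed the limit as did not. Of 43 genes, 41 were expressed, all 41 had a log2 ratio above 0 and 22 were at least 2-fold higher (median 1.12). Of the 22, 3 reached 1 CPM only in the CKO library, Ccl5 among them. Of the 38 that reached it in the control, 19 were at least 2-fold higher. Ccl5, a chemokine, had 8 against 147 reads, 13.0-fold higher (6.42 to 30.7), Ciita, the master regulator of class II antigen presentation, had 120 against 814, 4.80-fold higher (3.96 to 5.86), and its class I counterpart Nlrc5 had 60 against 442, 5.21-fold higher (3.97 to 6.94). B2m, the class I light chain and the most abundant per length, was 2.2-fold higher (2.13 to 2.27). Nmi at 0.23 and Shisa5 at 0.08 had the lowest log2 ratios of the list.

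**Figure D4:**
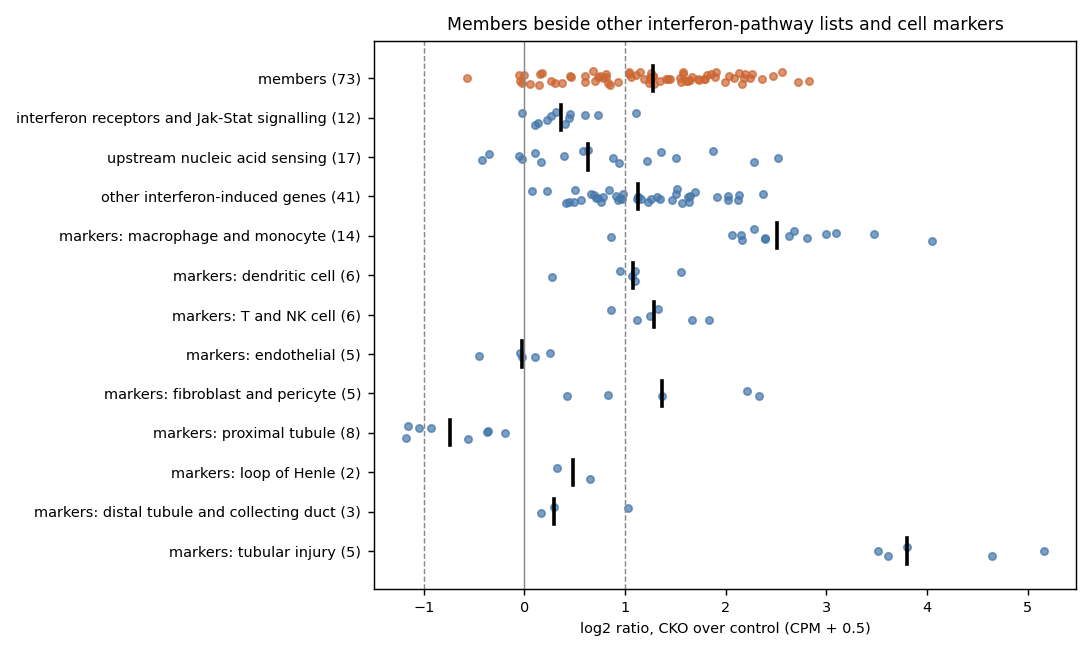
Log2 ratio of CKO over control (CPM + 0.5) for expressed members (orange) beside other interferon-pathway lists and cell type markers (blue), with the number of genes in brackets, medians as bars and the 2-fold limits dashed. The member median of 1.28 lies between the receptor list at 0.36 and the macrophage markers at 2.51, and the proximal tubule markers lie below 0 at -0.74.

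Markers of leukocytes differed between the libraries along with the members. All 14 macrophage and monocyte markers were expressed and 13 were at least 2-fold higher (median log2 ratio 2.51). Their summed level was 83.0 against 402 CPM. Of the 14, 12 reached 1 CPM in the control, and 11 of those were at least 2-fold higher. Ms4a7 was at 0 in the control. Of 9 T and NK cell markers 6 were expressed and 5 at least 2-fold higher, but 5 of the 6 reached 1 CPM only in the CKO library, so that count was largely set by the minimum. Over all 9 they summed to 3.22 against 13.9 CPM, with Cd3d at 0 in the control. Of 7 dendritic cell markers (summed 14.6 against 23.4 CPM) 6 were expressed and 4 at least 2-fold higher, and all 4 reached 1 CPM only in the CKO library. Zbtb46, the 1 dendritic marker with 1 CPM in the control, had a log2 ratio of 0.27. The 6 B and plasma cell markers summed to 4.82 against 12.8 CPM, most of it Ighm, with Ms4a1 at 0 in the CKO library. The 5 neutrophil markers summed to 0.897 against 4.84 CPM, of which Csf3r made up 0.731 and 4.27 CPM, with S100a8 and Ly6g at 0 in both libraries and Retnlg at 0 in the control.

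Kidney cell markers differed in their own ways. The 5 endothelial markers summed to 332 against 313 CPM with a median log2 ratio of -0.03, and the 5 fibroblast and pericyte markers to 199 against 564 CPM. The 8 proximal tubule markers summed to 16919 against 9635 CPM, with 3 at least 2-fold lower. The 5 tubular injury markers summed to 372 against 4593 CPM, all 5 at least 2-fold higher. Of those 5, Lcn2 and Krt19 reached 1 CPM only in the CKO library, and the other 3 reached it in the control too. In bulk tissue, more cells of a type and more RNA per cell cannot be told apart, and the part that these cell types take in the differences of the members was not tested.

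Most members sit in families of neighbouring genes, and 12 clusters with gaps of at most 500 kb held 55 of the 85. In the cluster of Ifitm5, Ifitm2, Ifitm1, Ifitm3, Ifitm6 and Irf7 on chromosome 7 (140948958 to 141266499), 3 of 4 expressed members were at least 2-fold higher. Of the 12 other expressed genes within it, among them Hras, Rnh1 and Sigirr, none (0) was at least 2-fold higher. For so few genes this is near the general share (10.3% of all expressed genes), so no contrast with the members is read from it. The median log2 ratio of the 12 was -0.02. Around Irgm1 and Ifi47 on chromosome 11 (48865245 to 49096987), 4 of 7 other expressed genes were at least 2-fold higher, among them Tgtp1 at 1.63 and Tgtp2 at 1.26 on the log2 scale, which are IRG-family genes too. Within the Oas cluster on chromosome 5 (120730333 to 120921648) the only other expressed gene was Oas1b, a transcribed pseudogene in the table. Oas1b had 18 against 94 reads, 3.69-fold higher (2.21 to 6.50). It reached 1 CPM only in the CKO library and so was bound to be higher there.

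Similar sequence limits single values in several families. Of the 85 members, 32 shared no 50-base word of their longest transcript with any other gene in GENCODE M21, and 22 shared more than 10%. Without those 22, 54 expressed members remained, of which 37 were at least 2-fold higher (median log2 ratio 1.27). Only the longest transcript of each member was scanned, so sharing can be understated. Of the words of Ifi211, 44.7% recur in Ifi205, but 0.186% of those of Ifi205 recur in other genes, and Ifi205 stayed among the 54. Irf4, Irf7, Oas2, Ddx58, Ifih1, Ifit2, Irgm1, Stat2 and Rsad2 were among the 32.

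Listed zeros add another limit. Of the members, 11 had 0 reads in the control, 4 of them in both libraries, and all but Ifi205 were under 1 CPM in both. Among all genes with a CKO count of 10 to 29 reads, 524 of 2369 had exactly 0 in the control and 191 had 1 to 3, so low counts were rarer than zeros. Whether a listed 0 is a true count was not tested, and the ratio for Ifi205 holds only if it is.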

How the data were processed

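Total kidney RNA was prepared with a kit for stranded mRNA, per the labels' protocols. Per the submitters' processing notes, the tools included Cufflinks 2.2.1, STAR 2.7.3a, edgeR, FastQC, HTSeq and DESeq2 and the build was mm10, with no roles given. The deposited table gives raw read counts per gene, with FPKM and TPM values computed by the authors, per the file headers. A second deposited table holds a normalized signal for 19550 genes, each count divided by a constant of 30.1 (control) or 42.6 (CKO), and includes 74 members.

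Values here rest on the counts. Scaling used TMM (edgeR 4.0.16, R 4.3.3), with factors of 0.896 and 1.12. CPM come from the effective sizes, and log2 ratios are CKO over control on CPM + 0.5, a scale that shrinks the ratios of low genes. A gene counted as expressed from 1 CPM in at least 1 library. Levels have exact Poisson and ratios exact Clopper-Pearson 95% intervals (Python 3.11.15, scipy 1.17.1), which cover counting error only. A ratio against 0 reads uses a floor of 3 reads (0.0996 CPM). The steps were tested on simulated data.

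In each role group the 5 most abundant members, the 3 largest ratios and the lowest were described with reads or levels, and others by log2 ratio. Of other lists, the most abundant gene, the 3 largest and the 2 lowest ratios could be named. The members and lists were chosen with earlier results of these data known. Names starting with Ifi2 were to form the HIN-200 group, but Ifi27, Ifi27l2a and Ifi27l2b are no HIN-200 genes and were counted with the other Ifi genes. Mx1, Mx2, Oas1b, Ifnb1, Socs1, marker genes at 0, genomic neighbours and shared-word values were named after their values were seen. Promoters came from RefSeq (GRCm38.p6), which held no window for 19 members. DESeq2 1.42.0 gave alternative size factors, and the other alternatives are listed with the dependence on processing. Some items, 1 of them a member, are kept in the counts and medians but not reported here by name.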

Additional observations from a re-analysis of the deposited data

How the results depend on the processing

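No member was at least 2-fold lower under any setting, no value changed direction past the limit, and 37 members were at least 2-fold higher under all 8 scalings, pseudocounts and minimums in which each was measured. The member median of 1.28 became 1.26 with DESeq2 size factors, 1.59 with total counts, 1.33 and 1.02 with pseudocounts of 0.1 and 2 CPM, 1.24 without a minimum, 1.05 with a minimum of 10 CPM, 1.70 with TPM and 1.42 with FPKM. It was 1.29 without the IRF2-binding proteins, 1.15 without multigene families, 1.27 without members sharing over 10% of their words and 1.24 with the minimum required in the control library, both alternatives chosen after seeing the data. The count at least 2-fold higher was 47 with DESeq2, 54 with total counts, 48 and 37 with the pseudocounts, 54 of 69 with TPM, 51 of 69 with FPKM, and 59 at a 1.5-fold limit. It was 25 of 46 with the 10 CPM minimum, 22 of 37 without multigene families and 38 of 62 with the minimum in the control, where fewer genes were counted. The pseudocount of 2 CPM took 10 members below the limit: Ifi44l, Irf8, Irf9, Oas1g, Usp18, Ifi205, Ifi209, Oas3, Ifitm10 and Xaf1.

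Total counts, TPM and FPKM moved the median of all expressed genes to 0.32, 0.40 and 0.26, and, of all genes past 2-fold in either direction, the higher ones from 86.1% to 95.9%, 94.9% and 93.5% (75.9% with the 10 CPM minimum). Relative to that median, members stood at 1.27 with TMM and total counts, 1.30 with TPM and 1.16 with FPKM. In these 3 scalings Irf3, Irf2bp1, Gbp8 and Samd9l turned positive. The log2 ratio of Inmt was -1.92 with total counts, -1.82 with TPM and -1.92 with FPKM, against -2.24. No paired analysis was possible because each group has 1 library and the labels give no replicate numbers. For the same reason no replicate could be left out.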

Other observations

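Another row of the table lies outside the set by its biotype and near a member cluster. Gbp11, counted as a transcribed pseudogene on chromosome 5, had 13 control and 43 CKO reads, 2.34-fold higher (1.23 to 4.74, counting error only), with a log2 ratio of 0.70. It reached 1 CPM only in the CKO library (0.432 against 1.01 CPM), so it was bound to be higher there. It was named after its value was seen.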
